A study of Homo sapiens with 80 samples.

Results

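Gene expression before hormone was compared between U2OS cells expressing the A477T allele of the glucocorticoid receptor and U2OS cells expressing GRalpha. The arrays were chosen by their titles: 4 of A477T at 0 h and 4 of GRalpha at 0 h, 8 of the 80 single-colour bead arrays of the series. U2OS is a human osteosarcoma line that makes little glucocorticoid receptor of its own. A477T carries an amino acid change in the dimer interface of the DNA-binding domain, and GRalpha is the common form of the receptor. All cultures grew in medium with fetal bovine serum, and the 0 h cultures of both lines were held in ethanol, the solvent of the hormone, for 4 h. Whether the serum was stripped of steroids is not stated, so before hormone means here before hormone was added. The remaining arrays held the same lines after 2, 4 or 24 h in 100 nM dexamethasone, a synthetic glucocorticoid, and lines expressing GRgamma, 30iiB or E773R. The series description gives 4 biological replicates per condition. No source used here gives the promoter that drives each allele or says whether a line is a clone or a pool. The allele and the line that carries it therefore cannot be told apart in these data.

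The glucocorticoid receptor is a ligand-activated transcription factor that waits in the cytoplasm bound to chaperones. Hormone releases it into the nucleus, where it binds DNA as a dimer on palindromic response elements or is tethered to other factors such as NF-kB and AP-1. Changes in the dimer interface weaken pairing on DNA and are known to alter regulation at some targets more than at others. The comparison at 0 h gives the base level from which the hormone responses of the 2 lines start.

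Values are normalised log2 signals, 1 per array. A difference is the A477T mean minus the GRalpha mean on the log2 scale (4 arrays a line). Its SE is from a limma model, with a spread fitted for each gene over all arrays of the series. The threshold for calling a gene was 0.05 on the p-value adjusted over 12547 genes by Benjamini-Hochberg. The median raw signal lay between 106 and 374.75 on the A477T arrays and between 216.5 and 397 on the GRalpha arrays (exact two-sided permutation p = 0.371, adjusted p = 0.371 over 2 measures). The number of detected probes was 15300 ± 534 in A477T cells and 16000 ± 691 in GRalpha cells (SD, n = 4; exact permutation p = 0.143, adjusted p = 0.286), where 4 against 4 cannot go below 0.0286. Of 9 measured markers of the labelled line, 8 were detected on all 8 arrays and COL1A2 on none of them, and none was called. Among markers of other cell types, KRT8 of epithelia and CD34 of blood and vessel progenitors were lower in A477T cells, and no other was called. Summed neural markers lay between 64.3 and 65.2 in A477T cells and between 67.1 and 70.6 in GRalpha cells, and summed liver markers between 38.9 and 40.5 in A477T cells and between 37.7 and 38.7 in GRalpha cells. SOX2 and NES, each at -1.71 without a call, gave most of the neural difference, ALB was detected on none of the 8 arrays, and the part of these markers in the results was not tested.

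NR3C1, the receptor gene, was not called. Its signal was 7.74, 7.21, 7.20 and 7.59 on the A477T arrays, against 8.10, 7.32, 7.21 and 8.02 on the GRalpha arrays, and the arrays overlapped. The difference was -0.23 (SE 0.34, adjusted p = 0.81), and a second NR3C1 probe gave -0.04. No source used here says whether these probes read the expressed construct, so they check neither allele. None of 25 measured genes of the receptor, its chaperones and its coregulators was called, among them HSP90AA1 (-0.27), FKBP4 (0.28) and NCOA2 (-0.22). Their median was -0.26, against 0.02 over all genes, 7 of the 25 differences were positive, and the lowest was -1.93.

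Before hormone, 303 genes differed between A477T and GRalpha cells, 2.41% of the genes tested. Of these, 167 were higher in A477T cells (1.33%) and 136 were lower (1.08%), and 1794 genes had an unadjusted p under 0.05. The median difference was 1.27 among the higher genes and -1.39 among the lower ones, against 0.02 over all genes. Differences over 2-fold were seen in 126 higher and 108 lower genes, and differences over 4-fold in 30 and 19. The 4 A477T arrays lay entirely above or below the 4 GRalpha arrays for 267 of the 303, against 1254 (9.99%) of all genes, where 4.42% had all A477T arrays above and 5.58% all below. Among the higher genes 18 were detected on no GRalpha array, and among the lower genes 11 were detected on no A477T array. The counts leaned on single GRalpha arrays: 191 genes were called without GRalpha replicate 4, and the number of higher genes was 97 without GRalpha replicate 3 and 99 without GRalpha replicate 4. Fitted to the 8 arrays alone, the model called 109 higher and 233 lower genes, of which 192 were among the 303.

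The most positive differences included cancer-testis antigens, a nuclear protein of immune cells, a cytokine and several secreted proteins. MAGEA10, a cancer-testis antigen of the melanoma antigen family, read 9.35, 9.81, 9.39 and 9.54 on the A477T arrays, against 5.11, 5.33, 5.00 and 5.10 on the GRalpha arrays. It was detected on every A477T array and on no GRalpha array, so its fold is a lower bound: at least 14.7-fold higher in A477T cells (adjusted p = 8.9e-25). For such a bound the GRalpha value on an array was raised to the lowest value of any detected probe there, wherever the gene's own lay below it, and likewise for A477T where no A477T array detected a gene. PAGE1, another X-linked cancer-testis antigen, read 8.94, 9.02, 8.37 and 9.03 in A477T cells, against 6.00, 4.78, 5.28 and 4.89 in GRalpha cells, a 12.1-fold difference (log2 3.60, SE 0.32, adjusted p = 3.3e-13), with only 1 GRalpha array detecting it. Of 19 cancer-testis genes measured, these 2 were higher, against 1.33% of all genes, none was lower, and the median was -0.18. MAGEA4 was at -0.30 and PRAME at -0.64, neither called. A dimmer MAGEA10 probe, detected on 1 A477T array, gave 0.72.

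TRIML2, of the tripartite motif-like family, read 11.47, 11.61, 12.34 and 11.59 on the A477T arrays, against 8.93, 8.29, 6.07 and 6.27 on the GRalpha arrays. The groups were far apart (20.6-fold, log2 4.36, SE 0.67, adjusted p = 6e-06), and the GRalpha arrays themselves spread over more than 2 log2 units. SP140, a nuclear body protein and chromatin reader of immune cells, read 11.44, 11.02, 11.79 and 11.41 in A477T cells, against 10.49, 7.35, 5.97 and 5.68 in GRalpha cells (16.5-fold, log2 4.04, SE 0.98, adjusted p = 0.0082). Its GRalpha replicate 1 lay close below the A477T arrays, and the call was lost without GRalpha replicate 3 (3.57, adjusted p = 0.067) or replicate 4 (3.48, adjusted p = 0.088, range over the alternatives 8e-05 to 0.088). A second SP140 probe gave 3.39. IL1A, the cytokine interleukin 1 alpha, read 9.26, 8.5, 11.56 and 9.83 in A477T cells, against 8.11, 7.19, 5.12 and 4.98 in GRalpha cells (10.8-fold, log2 3.44, SE 0.92, adjusted p = 0.02). It varied within both lines, was detected on 2 of the 4 GRalpha arrays, and its call was lost without A477T replicate 3 or 4 or GRalpha replicate 3 or 4 (2.85, 3.42, 3.03 and 2.98, adjusted p = 0.15, 0.051, 0.12 and 0.14, lowest 0.00099 under the alternatives).

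Secreted and metabolic proteins made up much of the rest. LRRC17, a secreted leucine-rich repeat protein, read 8.54, 8.63, 9.42 and 8.5 in A477T cells, against 5.13, 5.16, 4.71 and 5.05 in GRalpha cells, where no array detected it (at least 8.75-fold higher, adjusted p = 1.7e-12). Another LRRC17 probe gave 2.51, and the other, detected on no A477T array, -0.26. SUGCT, a mitochondrial CoA transferase that acts on glutarate, was well expressed in both lines, with 12.64, 13.40, 13.05 and 12.54 in A477T cells, against 11.24, 9.42, 9.47 and 8.83 in GRalpha cells (9-fold, log2 3.17, SE 0.44, adjusted p = 6.4e-07). TCN1, a vitamin B12-binding protein, had 9.05, 11.13, 10.04 and 9.42 in A477T cells, against 8.21, 7.53, 5.51 and 6.51 in GRalpha cells (7.83-fold). ESM1, the endothelial proteoglycan endocan, had 9.90, 9.53, 10.32 and 10.01 in A477T cells, against 9.32, 7.26, 5.41 and 6.23 in GRalpha cells (7.39-fold, adjusted p = 0.033). Of the 24 genes with the largest differences ESM1 lost its call in the most alternatives, 8: it was lost with the slide as a fixed block (2.33, adjusted p = 0.095), without any one of the 4 A477T arrays (2.76 to 3.02, adjusted p = 0.057 to 0.1) or without GRalpha replicate 2, 3 or 4 (2.96, 2.34 and 2.61, adjusted p = 0.055, 0.21 and 0.16, lowest 0.0013 under the alternatives). GCNT3, a glycosyltransferase of mucin sugars, had 6.18, 7.30, 9.57 and 7.13 in A477T cells and was detected on no GRalpha array (4.79, 4.88, 5.07 and 4.75), at least 3.74-fold higher (adjusted p = 7.7e-06).

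ALDH1L1, a folate enzyme of one-carbon metabolism, was even within each line. It read 8.77, 8.85, 8.91 and 8.37 in A477T cells, against 6.44, 5.94, 5.76 and 6.31 in GRalpha cells (6.11-fold, SE 0.25, adjusted p = 6.8e-12). LCE1B, a protein of the cornified envelope of skin, read 7.99, 8.25, 8.48 and 7.96 in A477T cells, against 6.76, 4.97, 5.13 and 5.37 in GRalpha cells (6.11-fold, adjusted p = 1.1e-07), where it was detected on 1 of 4 arrays. In 9 of these 12 genes GRalpha replicate 1 was the highest of the GRalpha arrays, the exceptions being MAGEA10, LRRC17 and GCNT3. GRalpha replicate 1 also had the lowest median raw signal of its line, 216.5. Leaving it out called 411 genes in place of 303, and the part of signal in this was not tested.

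**Figure D1:**
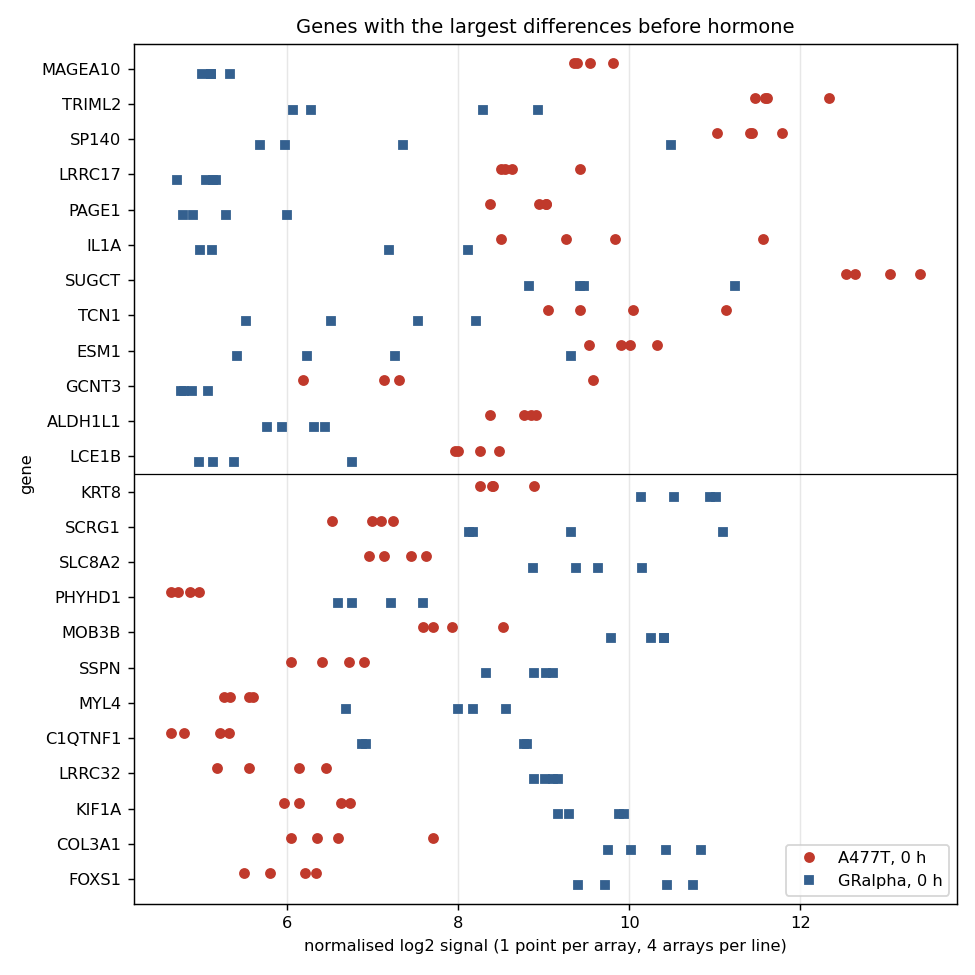
Normalised log2 signal on each array for the 12 most positive (above the line) and 12 most negative called differences, with A477T at 0 h as circles and GRalpha at 0 h as squares, 4 arrays each. For all 24 genes the circles lie wholly to one side of the squares, as the rule for naming them required, and SP140, TRIML2, IL1A and ESM1 show GRalpha arrays spread over several log2 units.

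The most negative differences included a forkhead factor, a fibrillar collagen, a muscle myosin chain and a keratin. FOXS1, a forkhead transcription factor, read 6.33, 6.21, 5.8 and 5.49 on the A477T arrays, against 10.44, 9.72, 10.74 and 9.40 on the GRalpha arrays, 17.4-fold lower (log2 -4.12, SE 0.48, adjusted p = 4.3e-09). COL3A1, the fibrillar type III collagen, read 6.59, 6.34, 7.70 and 6.04 in A477T cells, against 10.43, 9.75, 10.02 and 10.84 in GRalpha cells, 12.1-fold lower (log2 -3.59, SE 0.50, adjusted p = 4.8e-07). LRRC32, which anchors latent TGF-beta at the cell surface, read 6.45, 5.55, 5.17 and 6.14 in A477T cells, against 9.01, 9.16, 8.88 and 9.11 in GRalpha cells (9.28-fold lower, adjusted p = 5.3e-09). The GRalpha arrays lay close together for LRRC32, and no A477T array came within 2 log2 units of them. FOXS1 and LRRC32 were each detected on only 2 of the 4 A477T arrays. KIF1A, an axonal kinesin motor, had 6.73, 5.96, 6.13 and 6.63 in A477T cells, against 9.88, 9.94, 9.29 and 9.16 in GRalpha cells (9.24-fold lower, adjusted p = 1.4e-16).

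C1QTNF1, MYL4 and PHYHD1 were detected on all 4 GRalpha arrays and on no A477T array. C1QTNF1, a secreted relative of complement C1q, read 4.64, 5.21, 5.32 and 4.79 in A477T cells, against 8.77, 8.80, 6.92 and 6.87 in GRalpha cells (at least 4.05-fold lower, adjusted p = 5.8e-09). MYL4, the atrial myosin light chain, had 5.55, 5.60, 5.33 and 5.26 in A477T cells, against 8.56, 7.99, 8.17 and 6.69 in GRalpha cells (at least 4.09-fold lower, adjusted p = 0.0022). PHYHD1, a phytanoyl-CoA dioxygenase domain protein, had 4.86, 4.97, 4.64 and 4.72 in A477T cells, against 7.58, 6.75, 7.21 and 6.59 in GRalpha cells (at least 2.31-fold lower, adjusted p = 1.3e-06). All 3 genes kept a gap of more than 1 log2 unit between the lines. The other C1QTNF1 probes, each detected on 1 of the 8 arrays, gave 0.21 and -0.62.

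SSPN, the sarcospan of the dystrophin complex, had 6.89, 6.72, 6.04 and 6.40 in A477T cells, against 8.88, 8.32, 9.03 and 9.11 in GRalpha cells (5-fold lower, adjusted p = 0.0012). MOB3B, a MOB family kinase activator, was 4.84-fold lower and SLC8A2, a sodium/calcium exchanger, 4.66-fold lower (adjusted p = 0.0002 and 2.3e-05). SCRG1, first known from cartilage formation, had 7.10, 6.52, 6.99 and 7.24 in A477T cells, against 11.09, 8.12, 9.32 and 8.17 in GRalpha cells (4.63-fold lower, adjusted p = 0.00015). SCRG1 thus varied over nearly 3 log2 units within the GRalpha line, and its call was lost with the 8 arrays alone in the model (adjusted p = 0.053, lowest 5.7e-06 under the alternatives). KRT8, a keratin of simple epithelia, had 8.25, 8.88, 8.41 and 8.39 in A477T cells, against 10.14, 10.94, 11.01 and 10.52 in GRalpha cells (4.5-fold lower, adjusted p = 6e-06). Its pairing partner KRT18 was at 0.38 (SE 0.37) and was not called.

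Of the 24 gene lists examined, the interferon response held the most higher calls: 4 of 22 measured genes were higher in A477T cells, against 1.33% of all genes, none was lower, and the median was 0.61 against 0.02 over all genes. PSMB8 and PSMB9 are subunits of the immunoproteasome, and TAP1 is a subunit of the pump that loads its peptides onto MHC class I. The 3 genes neighbour each other on chromosome 6, where TAP1 and PSMB9 are read away from a shared promoter. Both promoter sequences are shown because the 2 genes share a promoter and both were higher in A477T cells. They are from RefSeq (GRCh38.p14), 250 bases before to 50 after each start, TAP1 on the minus strand at chr6:32853655-32853954 and PSMB9 on the plus strand at chr6:32853942-32854241, and they overlap by 13 bases. Capitals mark 2 overlapping matches to the core of the interferon-stimulated response element, a pair of GAAA with any 2 bases between, which lie on the strand opposite to that printed.
TAP1: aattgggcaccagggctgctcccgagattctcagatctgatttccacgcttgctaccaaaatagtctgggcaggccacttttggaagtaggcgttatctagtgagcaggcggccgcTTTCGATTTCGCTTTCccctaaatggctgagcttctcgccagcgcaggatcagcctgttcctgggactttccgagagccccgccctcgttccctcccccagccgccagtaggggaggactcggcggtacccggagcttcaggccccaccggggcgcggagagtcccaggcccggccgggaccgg
PSMB9: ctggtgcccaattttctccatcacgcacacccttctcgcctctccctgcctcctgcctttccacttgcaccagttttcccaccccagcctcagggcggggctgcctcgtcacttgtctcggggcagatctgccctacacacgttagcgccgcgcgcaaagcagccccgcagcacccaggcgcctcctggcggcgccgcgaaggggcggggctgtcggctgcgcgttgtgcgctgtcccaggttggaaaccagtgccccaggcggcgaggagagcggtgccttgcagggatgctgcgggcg
That motif, searched on both strands, was held by 3.65% of 27305 promoters, by 8 of 130 promoters of higher genes (6.15%) and by 4 of 102 promoters of lower genes (3.92%). The 27305 include promoters of genes not tested here, and 232 of the 303 called genes had a promoter among them. The single arm of the glucocorticoid response element, AGAACA, was held by 14.9% of all promoters, by 18 of 130 of the higher genes (13.8%) and by 8 of 102 of the lower genes (7.84%). The PSMB9 window held no match to the interferon motif. The window of PSMB8, also higher in A477T cells and not shown, held none either, and 1 match to AGAACA. Such matches describe letters in these windows only.

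PSMB9 read 8.13, 8.63, 7.51 and 8.10 on the A477T arrays, against 6.03, 5.92, 6.14 and 5.38 on the GRalpha arrays (4.68-fold, log2 2.23, SE 0.40, adjusted p = 0.00012). TAP1 read 11.44, 11.60, 12.10 and 11.47 in A477T cells, against 10.94, 10.83, 9.89 and 10.26 in GRalpha cells (log2 1.17, SE 0.30, adjusted p = 0.014). PSMB8 read 11.14, 10.95, 10.74 and 11.02 in A477T cells, against 10.54, 9.83, 9.69 and 8.88 in GRalpha cells (log2 1.22, SE 0.33, adjusted p = 0.02). The arrays of the 2 lines did not overlap for any of these 3 genes. IFI44L, an interferon-induced gene, was at 1.43 (adjusted p = 0.00017) and was detected on 1 GRalpha array. Classical interferon-induced genes were not called either way: ISG15 was at 1.48, IFIT3 at 1.36, MX1 at 0.62, OAS1 at 0.11 and IFIT1 at -0.05. A second, dimmer PSMB9 probe gave 0.00, and the other 3 PSMB8 probes gave 1.06, 0.41 and 0.81. The list held 2 called genes without GRalpha replicate 3 or 4 and also under median scaling of the arrays, and 7 with the authors' series matrix values. PSMB8 lost its call in 8 alternatives: without GRalpha replicate 4, for example, it was at 0.94 (adjusted p = 0.23, range 0.004 to 0.23).

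The sterol and fatty acid synthesis list held the most lower calls: 5 of 20 measured genes were lower in A477T cells, against 1.08% of all genes, none was higher, and 19 of the 20 differences were below 0. Its median was -0.65. MSMO1, a sterol methyl oxidase, read 12.05, 11.5, 11.19 and 11.58 in A477T cells, against 13.29, 13.34, 12.61 and 12.99 in GRalpha cells (2.79-fold lower, log2 -1.48, SE 0.35, adjusted p = 0.0059). SQLE, squalene epoxidase, read 12.78, 12.19, 13.33 and 12.81 in A477T cells, against 13.42, 14.61, 13.62 and 14.47 in GRalpha cells (2.37-fold lower, adjusted p = 0.0068). SCD, the stearoyl-CoA desaturase, was 2.27-fold lower (adjusted p = 0.0074), with A477T replicate 3 at 13.69 above GRalpha replicate 3 at 13.55. FADS1, a fatty acid desaturase, was at -0.96 and HMGCS1, the synthase at the entry of the mevalonate pathway, at -0.89. CYP51A1 (-2.10) and STARD4 (-1.69) had larger differences that did not pass the test, and FASN (0.01) and the regulators SREBF1 (-0.27) and SREBF2 (-0.17) were not called. SQLE was lost without A477T replicate 2 (-1.05), GRalpha replicate 2 (-1.05) or GRalpha replicate 4 (-1.10), at adjusted p = 0.073, 0.059 and 0.063 (lowest 0.00011 under the alternatives). SCD was lost without A477T replicate 2 (-1.02, adjusted p = 0.07, range 4.6e-06 to 0.23). Without A477T replicate 2, without GRalpha replicate 2 or under median scaling of the arrays 3 members were lower, and with the authors' series matrix values 12 were.

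**Figure D2:**
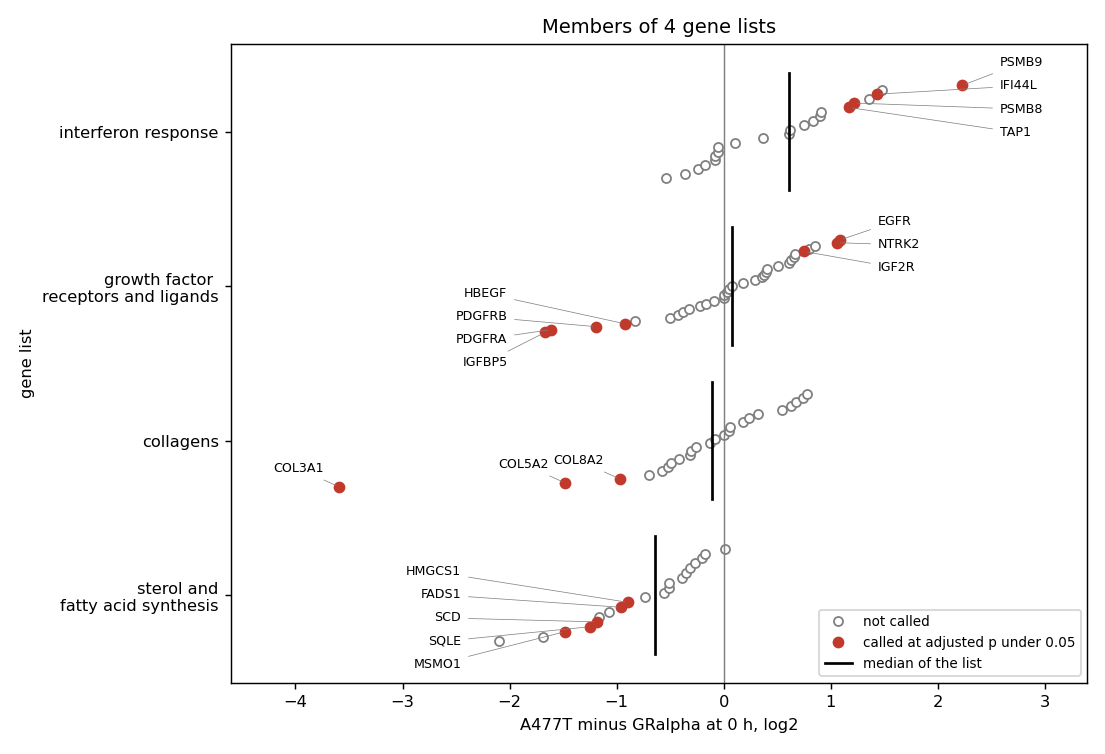
Differences at 0 h (A477T minus GRalpha, log2) for every measured member of 4 gene lists, with called genes filled and named and each list's median as a bar. The interferon median lies at 0.61 and the sterol and fatty acid median at -0.65, while the collagen and growth factor medians lie at -0.11 and 0.08.

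All called collagen and adhesion genes were lower in A477T cells. Of 24 collagens measured, COL3A1, COL5A2 and COL8A2 were lower, against 1.08% of all genes, and none was higher (list median -0.11). COL5A2, a fibrillar collagen of the regulatory kind, read 10.07, 10.53, 10.30 and 10.16 in A477T cells, against 11.43, 11.75, 11.56 and 12.26 in GRalpha cells (2.8-fold lower, adjusted p = 0.012). Its call was lost without GRalpha replicate 4 (-1.31, adjusted p = 0.096) and under median scaling (adjusted p = 0.12, lowest 0.00011 under the alternatives). COL1A1, the main bone collagen, was at -0.49 without a call. LAMA5, a laminin chain of basement membranes, and NCAM1, the neural cell adhesion molecule, were at -0.90 and -1.02 (adjusted p = 0.0033 and 0.002). They were the called members of 32 integrins, laminins and adhesion genes, against 1.08% of all genes lower. Under median scaling both calls were lost (adjusted p = 0.28 and 0.086). LAMA5 was also lost with the 8 arrays alone (adjusted p = 0.051, lowest 3.9e-05 under the alternatives) and NCAM1 with the mean of its probes (adjusted p = 0.093, lowest 8.9e-09). Among 28 matrix proteases and inhibitors ADAM15 was higher (0.90) and ADAMTS1 lower (-0.98), against 1.33% and 1.08% of all genes. Both were lost in 8 of the alternatives, for example without GRalpha replicate 4 (0.77 and -0.87, adjusted p = 0.17 each, highest 0.37 for ADAM15 under the alternatives).

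Growth factor receptors and ligands were called both ways, 3 higher and 4 lower of 33 measured, against 1.33% and 1.08% of all genes. Both PDGF receptors were lower in A477T cells. PDGFRA read 7.52, 7.45, 7.05 and 7.70 in A477T cells, against 8.72, 8.47, 9.42 and 9.55 in GRalpha cells (3.06-fold lower, adjusted p = 0.00011), and PDGFRB 10.05, 10.24, 10.61 and 9.81 in A477T cells, against 11.44, 11.07, 11.34 and 11.60 in GRalpha cells (2.28-fold lower, adjusted p = 0.00097). IGFBP5, an insulin-like growth factor binding protein of bone, was 3.19-fold lower (log2 -1.67, adjusted p = 0.00077), and HBEGF, a ligand of the EGF receptor, was at -0.92. On the higher side were EGFR (1.09), the neurotrophin receptor NTRK2 (1.06) and IGF2R (0.75, adjusted p = 0.049). Under median scaling the PDGFRB and IGFBP5 calls were lost (-1.25 and -1.71, adjusted p = 0.058 and 0.059, lowest 5e-05 and 4.8e-07 under the alternatives). The 3 higher calls became 1 without A477T replicate 2, A477T replicate 3 or GRalpha replicate 3.

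Single members of other lists differed. KCNH2, a cardiac potassium channel, read 6.59, 6.23, 6.78 and 6.63 in A477T cells, against 7.92, 8.34, 9.48 and 8.83 in GRalpha cells (4.24-fold lower, adjusted p = 1.7e-06), although its mean over 4 probes was not called (-0.81, adjusted p = 0.13, lowest 1.3e-08 under the alternatives). The sodium channel SCN2A and the cation channel TRPV2 were detected on no GRalpha array, TRPV2 on only 1 A477T array, and were at least 2.22-fold and 1.14-fold higher in A477T cells (adjusted p = 0.006 and 0.0082). Both calls were lost without A477T replicate 3 (1.07 and 0.73, adjusted p = 0.14 each) and with the 8 arrays alone (adjusted p = 0.06 and 0.072, lowest 0.00038 and 0.00024 under the alternatives). HOXD10, a limb patterning factor, was detected on all GRalpha arrays and on no A477T array (at least 1.58-fold lower, adjusted p = 9.4e-05). It was the one call among 30 HOX and limb factors, against 1.08% of all genes lower.

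ACTA2, smooth muscle actin, read 10.71, 10.46, 10.81 and 10.82 in A477T cells, against 10.24, 9.32, 8.17 and 8.10 in GRalpha cells (3.35-fold higher, adjusted p = 0.00016). CNN1, calponin of the same contractile apparatus, was lower (2.72-fold, adjusted p = 0.039). The TGF-beta and YAP target list thus held 1 call each way among 23, against 1.33% of all genes higher and 1.08% lower. The CNN1 call was lost without any single A477T array or without GRalpha replicate 3 or 4 (-1.25 to -1.52, adjusted p = 0.064 to 0.18, lowest 0.0013 under the alternatives). Among 22 bone matrix and osteoblast genes 2 were higher and 1 was lower, against 1.33% and 1.08% of all genes. SPP1, the bone matrix protein osteopontin, was at 1.27 (adjusted p = 0.0067) and BMP2 at 1.05 (adjusted p = 0.019). TNFRSF11B, the osteoclast decoy receptor osteoprotegerin, was at -1.26 (adjusted p = 0.04), a call lost in 7 alternatives. It was at -1.19 to -1.29 without any single A477T array (adjusted p = 0.076 to 0.12), -0.84 without GRalpha replicate 2 (adjusted p = 0.26) and -1.25 without GRalpha replicate 4 (adjusted p = 0.11, lowest 1.2e-05 under the alternatives). The TNFRSF11B call was also lost with the 8 arrays alone in the model (adjusted p = 0.095). SPP1 was lost under median scaling (1.15, adjusted p = 0.12, lowest 0.00024). ROR2, a WNT receptor, was at 0.81 (adjusted p = 0.033), with the arrays of the 2 lines overlapping. BMP2 was lost without A477T replicate 3 (0.87), GRalpha replicate 3 (1.02) or GRalpha replicate 4 (0.93), at adjusted p = 0.14, 0.072 and 0.13 (lowest 0.0025 under the alternatives). ROR2 was lost without A477T replicate 2, 3 or 4 or GRalpha replicate 3 or 4 (0.65 to 0.81, adjusted p = 0.082 to 0.21, highest 0.26 under the alternatives). Median scaling, the 8 arrays alone and slide as a fixed block lost it too (adjusted p = 0.26, 0.11 and 0.066).

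Of 26 measured genes known to be induced by glucocorticoids, 22 had a positive difference before hormone, and the median was 0.29 against 0.02 over all genes. In this list 2 genes were called higher in A477T cells, against 1.33% of all genes, and none lower. The 2 were CDKN1A, the cell cycle inhibitor p21 (1.22, SE 0.35, adjusted p = 0.04), and CEBPB, a transcription factor of acute responses (0.95, SE 0.27, adjusted p = 0.04). Among the 51 called genes followed through the alternatives these 2 lost their call most often, in 11 and 10 of them. Without GRalpha replicate 4, for example, they were at 1.01 and 0.67 (adjusted p = 0.25 and 0.39). TSC22D3 (0.57), SGK1 (0.19), DUSP1 (0.23), PER1 (-0.21) and KLF9 (0.02), which the receptor induces in many cells, were not called. With dexamethasone for 2, 4 and 24 h the list's median was -0.69, -0.90 and -0.80. At those times 9, 13 and 12 of its members were lower in A477T cells, against 2.74%, 3.47% and 5.11% of all genes, and none was higher. Inflammatory mediators had a median of 0.72 over 17 genes, with IL1A the one call, against 1.33% of all genes higher. CXCL8 was at 1.80, TNF at 1.42 and IL6 at 1.00, none passing the test. Of the 24 lists, 9 held no call: S phase, mitosis, hypoxia, the unfolded protein response, immediate early factors, imprinted genes, globins, metallothioneins, and the receptor with its chaperones.

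The same 2 lines were compared again in cultures with dexamethasone, whose arrays do not enter the 0 h means. All 80 arrays were normalised together and share 1 estimate of the spread, so the p-values at the 4 times are not independent. Of the 167 genes higher at 0 h, 102 were higher at 2 h (61.1%, against 2.15% of all genes), 95 at 4 h (56.9%, against 3.24%) and 91 at 24 h (54.5%, against 6.23%). Of the 136 lower at 0 h, 100 were lower at 2 h (73.5%, against 2.74%), 88 at 4 h (64.7%, against 3.47%) and 52 at 24 h (38.2%, against 5.11%). Calls in the opposite direction numbered 1 of the higher and 1 of the lower genes at 2 h, the same at 4 h, and 7 and 7 at 24 h. At all 3 times 61 of the higher and 44 of the lower genes were called in their 0 h direction. The median of the lower genes was -1.30, -1.12 and -0.58 at 2, 4 and 24 h, and that of the higher genes was 1.10, 0.98 and 0.93. The interferon list had medians of 0.51, 0.18 and 0.08, with 3, 3 and 0 members higher and 0, 0 and 1 lower. The sterol and fatty acid list had medians of -0.82, -0.66 and -0.39, with 7, 5 and 2 members lower and none higher. Over all genes the 2 lines differed in 614 at 2 h (4.89%), 843 at 4 h (6.72%) and 1423 at 24 h (11.3%), and the change over 4 h of hormone differed in 177 (1.41%). The 2 h count was 241 with only the compared arrays in the model, 1119 with slide as a fixed block, 1013 with it as a random block and 1408 with the authors' series matrix values.

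Among the largest differences, MAGEA10 was at 4.5, 4.33 and 4.55 with hormone for 2, 4 and 24 h. PAGE1 (3.82, 3.33 and 3.64), ALDH1L1 (2.90, 3.23 and 3.13), COL3A1 (-3.68, -3.96 and -2.86) and MOB3B (-2.28, -2.17 and -2.06) were likewise called at every time. Other differences were called at 2 and 4 h but not at 24 h, a change over time that was not tested. LRRC17 was at 3.60, 2.78 and -0.38, ESM1 at 3.09, 2.63 and -0.45, KIF1A at -3.92, -2.63 and 0.09, and FOXS1 at -3.58, -3.13 and -0.60. C1QTNF1 was at -1.84, -1.19 and 0.93. A further group had larger values with hormone than before it. GCNT3 was at 3.04, 3.49 and 4.79, PHYHD1 at -2.37, -3.77 and -4.61, and SCRG1 at -3.44, -4.30 and -4.68. By a limma interaction term the change over 4 h differed for SCRG1 (adjusted p = 0.039). It was not called for GCNT3 (0.81, adjusted p = 0.91) or PHYHD1 (-1.54, adjusted p = 0.075). The line without detection at 0 h stayed low over the 4 times. GRalpha means of GCNT3 lay between 4.8 and 5.08, and A477T means of PHYHD1 between 4.77 and 4.97. SCRG1 averaged 7.94 in A477T cells at 24 h, against 12.61 in GRalpha cells.

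**Figure D3:**
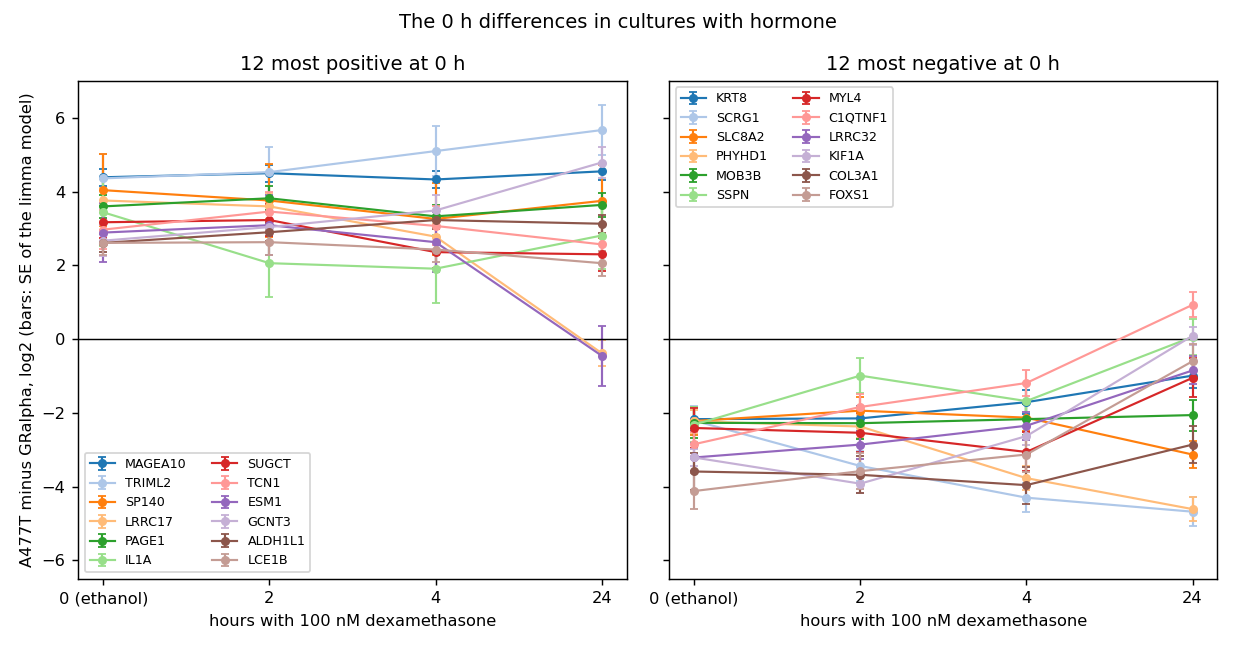
Difference between A477T and GRalpha cells (log2) at 0 h in ethanol and after 2, 4 and 24 h in 100 nM dexamethasone. Shown are the 12 most positive (left) and 12 most negative (right) differences at 0 h, with 4 arrays a line and time. Bars are SEs from a spread fitted for each gene over all arrays of the series. A gene's bar therefore has the same length at every time and does not show the spread of the 4 arrays there. Of the 12 on the left 9 were called in the same direction at all 3 later times, and of the 12 on the right 6 were. LRRC17, ESM1, KIF1A and SSPN ended near 0, and C1QTNF1, lower at 0 h, ended at 0.93.

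The 14 genes called in the opposite direction at 24 h were chosen after their values were seen. TGM2, a transglutaminase that links matrix proteins, averaged 9.88 in A477T cells at 0 h, against 7.97 in GRalpha cells, and 9.38 in A477T cells at 24 h, against 11.25 in GRalpha cells, so the difference was 1.91 at 0 h and -1.87 at 24 h (adjusted p = 2.4e-05 and 4.3e-06). HELZ2, a helicase coactivator, was at 0.94 and -2.93, and EGFR at 1.09 and -1. CHST15, a sulfotransferase of cell surface sugars, averaged 5.18 in A477T cells at 0 h, against 7.21 in GRalpha cells, and 8.54 in A477T cells at 24 h, against 5.73 in GRalpha cells. It was detected on no A477T array at 0 h. PDGFRB was at -1.19 at 0 h and 1.52 at 24 h, CD34 at -0.86 and 1.85, and SYNPO2L at -1.35 and 3.28. The rest were CLPSL2, SP110, PLIN2 and ACP7, higher at 0 h, and CRMP1, CNTNAP2 and TMEM100, lower at 0 h. Apart from these, SYT13, a synaptotagmin, was at 5.5 at 24 h, NLRP3, an inflammasome sensor, at 4.98 and TRPV2 at 4.58, while EFHD1 and the oestrogen receptor GPER1 were at -4.96 and -4.62. These 5 were also picked after their values were seen.

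Whether the 303 genes are ones that hormone regulates was looked at in the other 3 lines, which share no array with A477T or GRalpha, in a contrast chosen after earlier values were seen. Averaged over GRgamma, 30iiB and E773R cells, dexamethasone for 4 h changed 1018 genes (8.11%), raising 4.34% of all genes and lowering 3.77%. Of the 167 genes higher in A477T cells at 0 h, 20 were raised (12%) and 10 lowered (5.99%). Of the 136 lower genes, 11 were raised (8.09%) and 26 lowered (19.1%). The rest of the 303 genes were not called for a response at 4 h in those lines.

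Both lines were also set against the mean of the other 3 at 0 h, comparisons that share the A477T or the GRalpha arrays with the one above. A477T differed from the other 3 in 352 genes (2.81%), and GRalpha in 56 (0.446%). The first number was 210 without A477T replicate 3 and the second 25 without GRalpha replicate 2 and 22 without GRalpha replicate 4. Under median scaling A477T differed in 163 genes, and with slide as a fixed or random block GRalpha differed in 136 or 133. With the authors' series matrix values the counts were 936 for A477T and 324 for GRalpha, and with the compared arrays alone GRalpha differed in 20. The genes with the largest differences were picked on these same arrays, so their place among the 5 lines is a description. KIF1A averaged 6.36 in A477T cells, against 9.73 in GRgamma, 8.36 in 30iiB, 10.64 in E773R and 9.57 in GRalpha cells. For MAGEA10 it was the GRalpha mean that lay apart: it averaged 9.52 in A477T cells, 10.91 in GRgamma, 9.97 in 30iiB and 9.46 in E773R cells, against 5.14 in GRalpha cells. So it was for C1QTNF1, with 4.99 in A477T, 5.33 in GRgamma, 4.90 in 30iiB and 4.79 in E773R cells, against 7.84 in GRalpha cells. ALDH1L1 averaged 8.72 in A477T, 6.48 in GRgamma, 9.17 in 30iiB, 8.57 in E773R and 6.11 in GRalpha cells. From the gene lists, TNFRSF11B averaged 9 in A477T, 8.56 in GRgamma, 9.56 in 30iiB, 8.55 in E773R and 10.26 in GRalpha cells. ACTA2 averaged 10.7 in A477T, 9.04 in GRgamma, 10.46 in 30iiB, 10.79 in E773R and 8.95 in GRalpha cells. FOXS1 and COL3A1 were low in 30iiB cells too, at 6.88 and 6.85, against 5.96 and 6.67 in A477T and 10.07 and 10.26 in GRalpha cells. The A477T mean was the extreme of the 5 lines for 10 of the 12 most positive and 10 of the 12 most negative genes. The GRalpha mean was the opposite extreme for 5 of each 12.

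The called genes were not spread evenly over the chromosomes. On chromosome 9, 26 of 523 tested genes were higher in A477T cells (4.97%), against 1.17% of 12008 on the other chromosomes, where no single one passed 2.17%. A further 8 of its genes were lower (1.53%, against 1.08% of all genes). Chromosome 9 was picked out after these shares were seen. Along it, medians over windows of 25 neighbouring genes stayed above 0.3 for 53 windows in a row, centred on the 53 genes from LPAR1 to PDCL on the long arm. This was the longest such run in either direction on any chromosome, and since the 0 h values chose it, its 0 h median of 0.49 and its 46 positive genes are a description. Within it 7 genes were called higher and none lower: WHRN (1.27), the centrosome protein CDK5RAP2 (0.93), ASTN2 (0.86), the F-box protein FBXW2 (0.81), the mitochondrial ribosome recycling factor MRRF (0.77), the splicing factor PRPF4 (0.62) and SUSD1 (0.60). These differences were small beside those of the genes named above.

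In the hormone cultures, which the choice of genes did not use, the same 53 genes had medians of 0.33, 0.33 and 0.37 at 2, 4 and 24 h. Positive differences were seen in 43 (81.1%), 41 (77.4%) and 41 (77.4%) of them, against 51.3%, 48.7% and 49% of all other placed genes. Array by array, the median of the 53 genes, each taken relative to its mean over the 80 arrays, minus the same median over all genes, lay between 0.19 and 0.45 on the 12 A477T arrays with hormone. On the GRgamma, 30iiB, E773R and GRalpha arrays with hormone, 12 of each, the highest values were 0.02, 0.08, 0.06 and 0.09. At 0 h, where the A477T and GRalpha arrays had chosen the genes, the values were 0.28 to 0.41 in A477T cells and -0.17 to -0.01 in GRalpha cells. Further along the chromosome a run of 15 genes from LHX2 to MVB12B had medians of 0.48 at 0 h and 0.25, 0.62 and 0.54 at 2, 4 and 24 h. LHX2, a homeobox factor, was at 2.49 at 0 h (adjusted p = 1.5e-08) and 2.79 at 24 h. On the same chromosome 17 genes from MOB3B to NOL6 ran lower, with medians of -0.38 at 0 h and -0.34, -0.40 and -0.27 at 2, 4 and 24 h. Not every run was met again: 25 genes of chromosome 1 from TMED5 to EXTL2 had a median of -0.48 at 0 h and 0.02, -0.09 and -0.07 with hormone. On chromosome 9 itself, 20 genes from LHX3 to PTGDS had a median of 0.32 at 0 h. With hormone for 2, 4 and 24 h it was 0.2, 0.02 and 0.13.

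**Figure D4:**
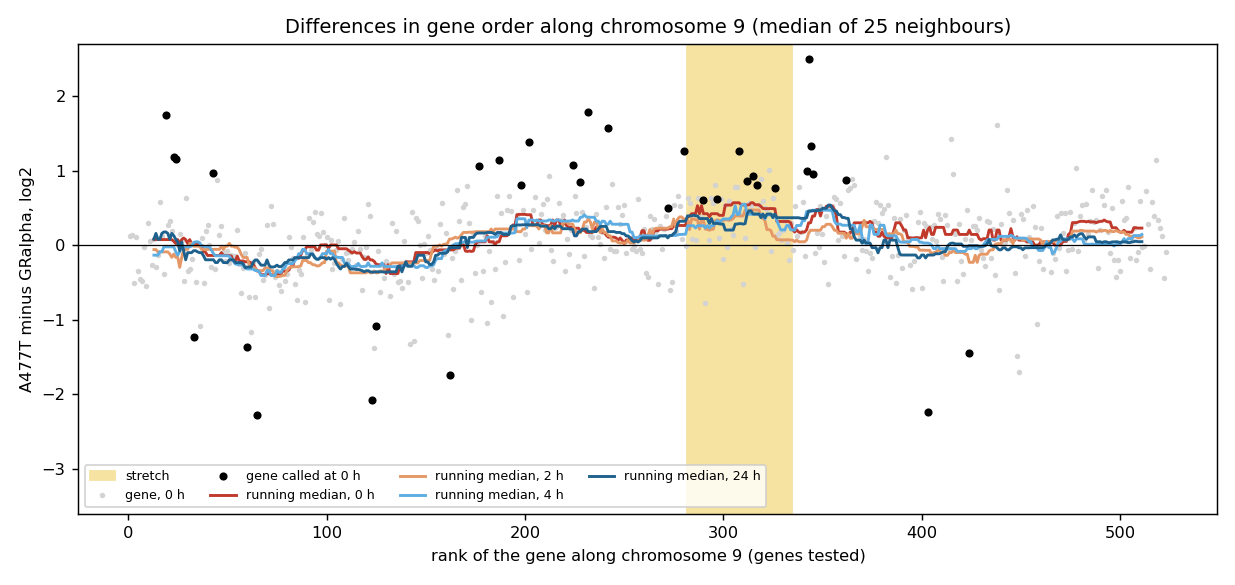
Difference between A477T and GRalpha cells (log2) against the order of the tested genes along chromosome 9, with points for single genes at 0 h (black where called) and lines for the running median of 25 neighbours at 0, 2, 4 and 24 h. Over the shaded 53 genes the median difference was 0.49 at 0 h and 0.33, 0.33 and 0.37 at 2, 4 and 24 h.

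**Figure D5:**
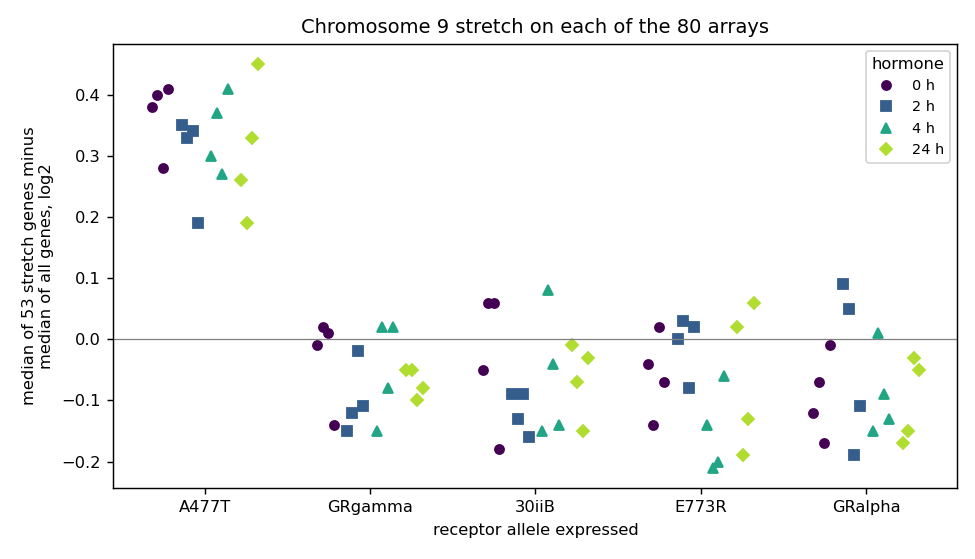
Median of the 53 chromosome 9 genes minus the median of all genes on each of the 80 arrays (log2, each gene relative to its mean over all arrays), by line and time. The 16 A477T arrays lie between 0.19 and 0.45, and the highest of the other arrays, a GRalpha one, lies at 0.09, where the 0 h arrays of these 2 lines had chosen the genes.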

How the data were processed

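Expression was measured on Illumina single-colour bead arrays of U2OS cells. The authors deposited a table of non-normalised probe intensity with a detection p-value for each of 25204 probes and 80 arrays, per the file headers. They also deposited a series matrix of log2 values for 21241 probes, used only as an alternative; no source used here states its background correction or normalisation.

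From the intensities, limma 3.58.1 (R 4.3.3) gave background-corrected (normexp, offset 16, background from the detection p-values) and quantile-normalised log2 values. Of 19291 probes with 1 gene symbol (5913 had none, and 19274 matched the gene table), 15392 were kept for a detection p under 0.05 on at least 4 arrays. The brightest kept probe stood for each of 12547 genes, and 2151 genes had more than 1. A mean was fitted for each of 20 groups with lmFit and eBayes (60 residual degrees of freedom), and p-values were adjusted by Benjamini-Hochberg over all genes. Fold changes come from background-corrected signal with an offset, so they understate the change of dim genes, and the number of arrays limits their precision. The fit and the window scan were tested on simulated data. Python 3.11.15 with matplotlib 3.10.9 drew the figures.

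The text names the 12 most positive and 12 most negative called genes with non-overlapping arrays, NR3C1, and up to 3 called members of each of 24 lists; other genes are list members, or are said to be chosen after their values were seen. The members and lists were chosen with earlier results of these data known. There were 10 slides of 8 arrays, none holding more than 1 array of a group, and slide entered as a fixed or random block. A477T replicate 1 and GRalpha replicate 4 were the only pair of the 8 arrays to share one. Same-numbered arrays of the 2 lines did not deviate together, so the numbers were not taken as pairs. Other alternatives were offset 50, no background correction, median scaling, no or a stricter detection filter, the mean of a gene's probes, the compared arrays alone, trend and robust eBayes, and leaving out each array.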

Additional observations from a re-analysis of the deposited data

Results flagged for a closer look

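In 4 of the 104 sets of 4 arrays checked (52 named genes in 2 lines) a single array stood apart by Dixon's criterion, which chance meets in about 1 of 20 sets. All 4 were A477T replicate 3 at 0 h. It read 12.34 for TRIML2, against 11.47 to 11.61 on the other A477T arrays, 9.42 for LRRC17, against 8.5 to 8.63, 8.37 for PAGE1, against 8.94 to 9.03, and 8.89 for CDKN1A, against 7.87 to 8. This array had the highest median raw signal of its line, 374.75, and the part of signal in these values was not tested.

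The change over 4 h of dexamethasone differed between the lines for 2 of the named genes by a limma interaction term. For SCRG1 the response in A477T cells minus that in GRalpha cells was -2.09 (adjusted p = 0.039), from responses of 0.48 in A477T cells and 2.57 in GRalpha cells. For PDGFRB it was 1.62 (adjusted p = 0.0019), from responses of 1.19 in A477T cells and -0.43 in GRalpha cells.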

How the results depend on the processing

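None of the 51 called named genes changed direction in any alternative; 26 kept their call throughout and 25 lost it at least once. Of the 24 largest, 20 kept it, the exceptions being ESM1, IL1A, SP140 and SCRG1. Within the slide shared by A477T replicate 1 and GRalpha replicate 4, each named gene had the sign of its difference over all arrays, with no test possible. With the authors' series matrix values 759 genes differed at 0 h (372 higher, 387 lower; 298 of the 303 among them), 1408, 1807 and 2438 at 2, 4 and 24 h, 936 between A477T and the other 3 lines and 324 between GRalpha and the other 3. With only the compared arrays in the model the counts were 109 higher and 233 lower at 0 h, 241 at 2 h and 20 for GRalpha against the other 3. With arrays scaled to the same median A477T differed from the other 3 in 163 genes. With slide as a fixed block 1119 genes differed at 2 h and 136 between GRalpha and the other 3; as a random block the counts were 1013 and 133. The cause of these shifts was not tested. Leaving out each array gave 191 to 411 genes at 0 h (97 to 239 higher, 92 to 172 lower), 599 to 638 at 2 h, 826 to 855 at 4 h, 1408 to 1436 at 24 h, 210 to 366 for A477T and 22 to 58 for GRalpha against the other 3. With the replicate number as a block 358 genes were called (195 higher, 163 lower), all of the 303 among them, although same-numbered arrays correlated at 0.37, -0.04, -0.47 and -0.30 and only replicate 1 matched its own number best; no other count moved by over 1.5 times under this block. The chromosome 9 median, an alternative set added after seeing the data, lay between 0.25 and 0.55. Scaling moved the median of all genes to at most 0.05. Dim genes near background have compressed differences: MAGEA10 was at 2.57 without background correction and 2.51 in the series matrix.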
